A study of Rattus norvegicus with 6 samples.

Results

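The DEAD and DEAH box RNA helicases are 2 families of ATP-driven enzymes, named after the Asp-Glu-Ala-Asp and Asp-Glu-Ala-His residues of the ATPase motif that their members share or vary. All gene symbols of the deposited counts table that read Ddx or Dhx followed by a number and an optional letter were taken as members, except Dhx9. This rule, which uses names and no measured value, gave 53 of 18631 genes, 38 of them Ddx and 15 Dhx. Polyadenylated RNA was sequenced from cultures of rat smooth muscle of the vessel wall, the cell type whose contraction sets vessel width. The libraries fall into 3 labelled MIAT knockdown, numbered 1 to 3 in their titles, and 3 titled Scr with the genotype label WT (Scr control). The labels' protocol describes a 72 h exposure to siRNAs together with antisense oligonucleotides, 50 nM in total. That protocol is attached to every library, and what the Scr cells received is not stated. The labels give no strain, passage or clone, and do not tell whether each library had a culture of its own. The p-values below therefore reflect the spread among these 6 libraries alone, and that spread may be technical. In tests with the replicate number as a block, it is the spread left after differences between numbers are removed. MIAT is a long noncoding RNA, which the series title joins with the helicase DHX9 to nucleolar homeostasis and mitotic progression. Miat was not analysed here.

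RNA helicases of these families use ATP to open short RNA duplexes or to strip proteins from RNA. DEAD-box enzymes bind a duplex and pry it apart locally, whereas DEAH-box enzymes move along a strand, often with the help of partner proteins that carry a G-patch domain. Different members serve ribosome assembly in the nucleolus, splicing, export, translation, mRNA decay and the detection of viral RNA. The same enzymes are found in nearly all cell types, and smooth muscle that proliferates depends on the ribosome and splicing machinery as other dividing cells do.

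Total counts were 17793811 to 20121161 per library. The leading principal component held 42.2% of the variance and followed the replicate numbers, with control library 3 apart at 51.0 and the other libraries between -34.7 and 21.5. On the next component, with 25.4%, knockdown libraries lay at 21.4 to 23.2 and control libraries at -28.1 to -18.5. The knockdown and control library of 1 number, called a pair, deviated together, so results are given without and with the replicate number as a block, and a gene is said to have risen or fallen only by an edgeR quasi-likelihood test with the block at a Benjamini-Hochberg adjusted p under 0.05 over all 13423 tested genes. Levels are CPM, counts relative to the TMM-scaled library size, with the SD over 3 libraries. Where genes are compared with each other the level is the deposited FPKM, which divides by gene length. The smooth muscle markers Acta2 and Myh11 were present in every library. Summed over 7 smooth muscle markers the level was 5256 to 7647 CPM in knockdown and 5930 to 7617 CPM in control libraries, and 2 of 7 fell. Endothelial, leukocyte and nerve sheath markers each summed to at most 22.2 CPM in any library. Most were detected, with 0 counts in 1 to 3 of 6 endothelial, 0 to 1 of 5 leukocyte and 0 of 3 nerve sheath markers per library. The 3 adventitial fibroblast markers summed to 271 to 476 CPM against 417 to 699 CPM, and 2 of 3 fell. The part of these marker differences in the results was not tested, and in bulk RNA fewer cells of a type and less RNA per cell cannot be told apart.

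The promoters of the 7 helicase genes that rose in the knockdown libraries are shown first. All 7 hold a match to a short motif, but such matches were not particular to genes that rose. The CCAAT box, the only motif found for Ddx20, was in 23 of 47 member promoters and in 38% of promoters of tested genes. Dhx57, which fell, held it too. Each line gives the 100 bases before the annotated start, 5′ to 3′ on the gene's strand, from RefSeq on the GRCr8 build, with motif matches in capitals.
Ddx28 (chr19:50821574-50821673, minus strand): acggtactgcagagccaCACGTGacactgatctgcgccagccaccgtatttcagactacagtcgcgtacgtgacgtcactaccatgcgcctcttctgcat
Ddx18 (chr13:35295973-35296072, minus strand): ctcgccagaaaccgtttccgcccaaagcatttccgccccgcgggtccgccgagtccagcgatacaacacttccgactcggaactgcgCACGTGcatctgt
Ddx47 (chr4:169576913-169577012, plus strand): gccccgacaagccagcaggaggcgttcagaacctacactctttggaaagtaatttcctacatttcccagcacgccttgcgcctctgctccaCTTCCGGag
Ddx55 (chr12:37711199-37711298, minus strand): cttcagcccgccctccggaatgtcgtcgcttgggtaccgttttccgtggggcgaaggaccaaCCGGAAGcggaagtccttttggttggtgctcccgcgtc
Dhx16 (chr20:2879752-2879851, minus strand): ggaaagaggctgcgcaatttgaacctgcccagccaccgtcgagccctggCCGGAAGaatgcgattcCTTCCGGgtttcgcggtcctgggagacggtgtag
Ddx21 (chr20:31097239-31097338, minus strand): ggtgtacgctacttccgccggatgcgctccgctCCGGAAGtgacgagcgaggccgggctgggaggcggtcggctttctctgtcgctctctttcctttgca
Ddx20 (chr2:195855097-195855196, minus strand): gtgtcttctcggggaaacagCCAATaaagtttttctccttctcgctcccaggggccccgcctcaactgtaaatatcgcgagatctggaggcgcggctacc
The capitals in Ddx28 and Ddx18 mark the E-box CACGTG, a palindrome, those in Ddx20 the CCAAT box, and those in the other 4 genes the ETS motif CCGGAAG on either strand.

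Promoters of 300 bases, 250 before to 50 after the start, were found for 47 of the 53 members. Ddx24, Ddx3, Ddx52, Ddx58, Ddx6 and Dhx58 had no entry. Both strands were searched for 6 motifs, counted separately, so that a stretch can count for more than 1 motif. CCGGAAG was in 18 of 47 member promoters (38.3%), against 9.22% of all 27457 promoters and 17.5% of the 10335 promoters of tested genes. The E-box CACGTG was in 7 (14.9%), against 6.65% of all and 9.42% of tested genes. The CCAAT box was in 23 (48.9%, against 37.7% of all and 38% of tested genes), the palindromic NRF1 motif in 3 (6.38%, against 0.932% and 1.89%), the YY1 motif AAGATGGCG in 1 (2.13%, against 1.93% and 3.72%) and the interferon response element in 2 (4.26%, against 3.77% and 2.87%). Of the 7 members that rose, 4 held CCGGAAG and 2 the E-box. The ETS motif was therefore more frequent in the helicase promoters than in promoters at large whether or not the gene rose. These are matches of letters and show no binding.

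The helicases spanned a wide range of levels in the smooth muscle cells. In the control libraries the 34 tested Ddx genes ran from 1.21 FPKM for Ddx25 to 166 FPKM for Ddx5, with a median of 16.8 FPKM. The 15 Dhx genes ran from 1.10 FPKM for Dhx35 to 53.0 FPKM for Dhx15, with a median of 8.38 FPKM. After Ddx5, a coregulator of transcription and splicing, the highest levels were 96.7 ± 9.36 FPKM for Ddx1, which acts in tRNA ligation, 90.5 ± 2.87 FPKM for Ddx3x, a factor of translation initiation, and 84.8 ± 0.982 FPKM for Ddx39b, a subunit of the mRNA export complex TREX (SD, n = 3). Ddx1 and Ddx3x did not differ beyond their spread. Dhx15, which takes spliceosomes apart, stood well above Dhx40 at 14.5 ± 2.30 FPKM and Dhx38, a helicase of the later steps of splicing, at 13.5 ± 1.47 FPKM.

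**Figure D1:**
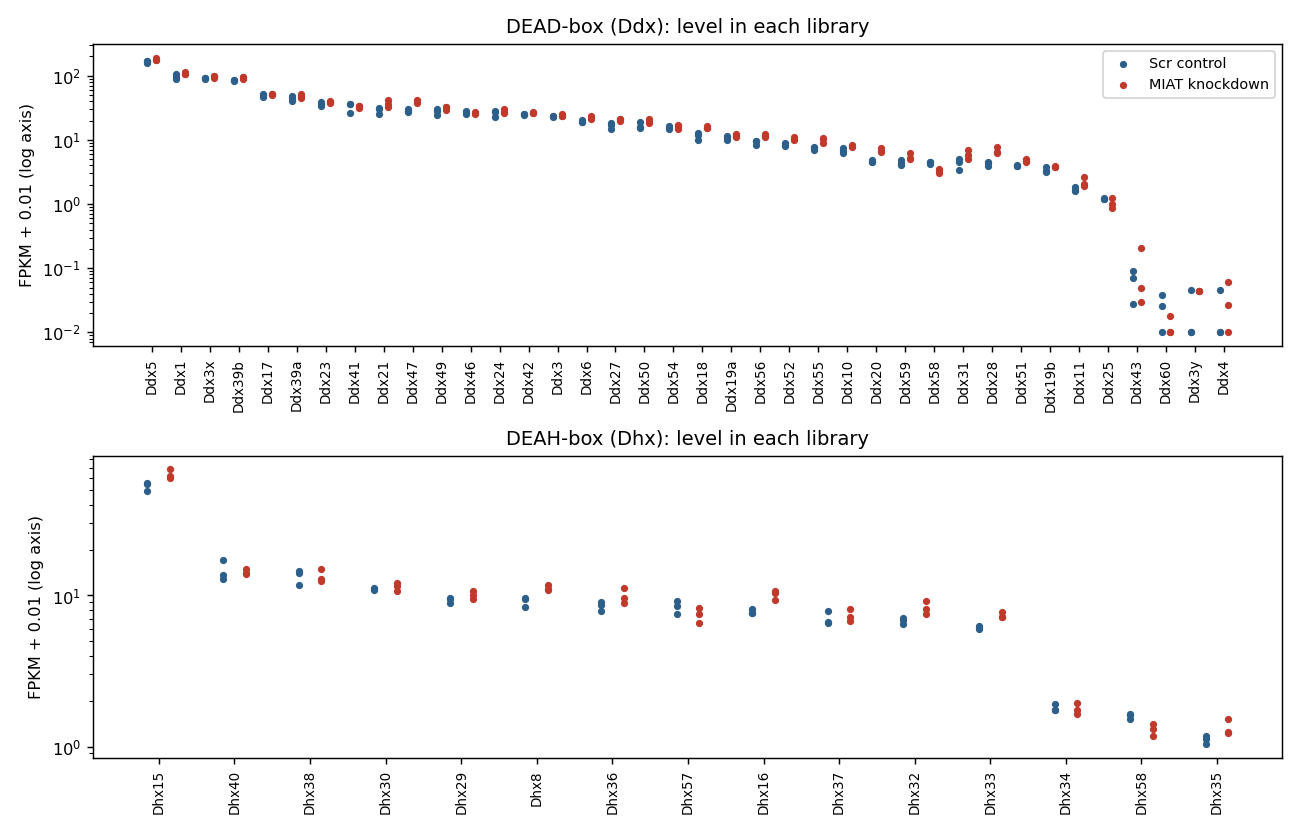
FPKM plus 0.01 on a log axis for each helicase gene (1 point per library, blue for Scr control, red for MIAT knockdown), Ddx genes above and Dhx genes below, ordered by the control mean. Ddx5 is the highest at 166 FPKM in controls, and Ddx43, Ddx60, Ddx3y and Ddx4 lie far below all others.

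Only 4 members were too low to test, all of them Ddx genes. Ddx4 (Vasa), a germ cell helicase, had 6 counts over the 6 libraries, Ddx43, which is known from testis and tumours, had 21, the Y-linked Ddx3y had 8 and the interferon-induced Ddx60 had 7, with at most 10 counts in any library. Every Dhx gene passed the filter. Together the Ddx genes took 0.297% to 0.319% of all counts in control and 0.337% to 0.356% in knockdown libraries, and the Dhx genes 0.0596% to 0.0630% and 0.0666% to 0.0713%. After TMM scaling the groups overlapped for the Ddx genes, with sums of 3247 to 3365 CPM in knockdown and 3167 to 3290 CPM in control libraries. The Dhx genes summed to 644 to 674 CPM and 635 to 642 CPM. These genes varied little between libraries of a group, with a median within-group SD of 0.087 on the log2 scale over the 34 Ddx and 0.112 over the 15 Dhx genes, against 0.177 over all tested genes. The genes were not matched by level for that comparison.

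Helicase genes that changed in the knockdown libraries mostly went up, by less than 1.5-fold. With the block, 7 rose and 2 fell among the 49 tested members and 40 did not pass, while over all tested genes 10.5% were called higher and 11.1% lower. Split by symbol, the only basis for the families here, 6 of 34 Ddx genes rose and 1 fell, and 1 of 15 Dhx genes rose and 1 fell. The share of members called in either direction, 18.4%, was near the 21.6% of all tested genes. Ddx genes were called higher in 17.6% of cases and Dhx genes in 6.67%, and the difference between the families was not tested. The median log2 fold change was 0.08 over the Ddx and -0.0041 over the Dhx genes, against -0.0090 over all tested genes. Within pairs 17 of 34 Ddx and 6 of 15 Dhx genes were higher in 3 of 3, against 28% of all tested genes, and 3 and 4 were lower in 3 of 3, against 28.5%. The groups did not overlap in 11 Ddx and 4 Dhx genes that were higher, against 14.2% of all tested genes, and in 3 and 1 that were lower, against 11.8%.

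Without the block edgeR called 0 of 49 members, as it called 0% of all tested genes, and the smallest adjusted p among members was 0.108. Unadjusted p-values were under 0.05 in 10 members, against 19.2% of all tested genes. DESeq2 without the block called 3, Ddx20 and Ddx47 higher and Ddx58 lower, against 2.73% of all tested genes higher and 2.47% lower. With the block DESeq2 called 4, the same 3 and Ddx28, against 4.92% of all tested genes higher and 6.92% lower in that fit. With total counts in place of TMM, which moved the median of all tested genes from -0.0090 to 0.10, the block fit called 18 members higher and 1 lower, against 21.1% and 6.1% of all tested genes. A correction for gene length in the block fit gave 6 higher and 1 lower (9.41% and 7.69% of all tested genes). Leaving out a pair gave 2 and 2 without pair 1 (3.96% and 4.97%), 1 and 0 without pair 2 (2.56% and 2.85%) and 9 and 2 without pair 3 (14.1% and 16.2%).

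**Figure D2:**
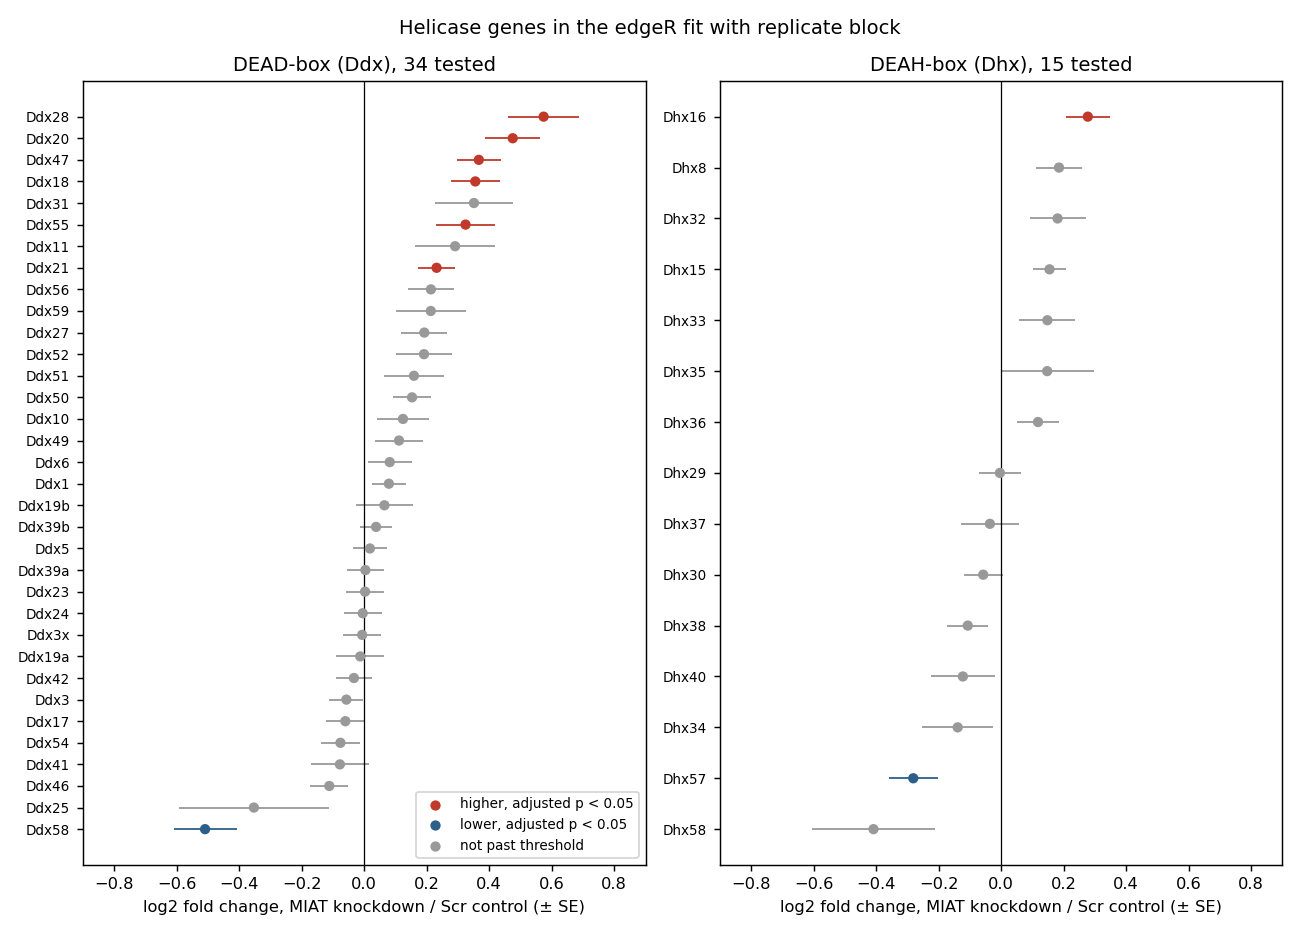
Log2 fold change of MIAT knockdown over Scr control with its standard error for the 34 tested Ddx and 15 tested Dhx genes in the edgeR fit with the replicate block. Red points rose and blue points fell at an adjusted p under 0.05. The changes lie between -0.51 for Ddx58 and 0.57 for Ddx28.

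The largest rise among the members was that of Ddx28, a mitochondrial helicase that takes part in assembly of the large mitochondrial ribosomal subunit. Its level was 11.9, 11.8 and 14.4 CPM in knockdown libraries 1 to 3 and 7.54, 8.52 and 9.52 CPM in control libraries 1 to 3. All knockdown values lay above all control values. The change was 1.49-fold (log2 fold change 0.57, SE 0.11, edgeR adjusted p = 0.0111 with the block and 0.131 without it). The other member of the mitochondrial ribosome group, Dhx30, stood at 64.4 ± 4.83 against 67.0 ± 1.68 CPM and did not pass.

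Ddx20 encodes Gemin3, a subunit of the SMN complex that loads Sm proteins onto spliceosomal RNAs. It was at 27.3, 26.9 and 31.3 CPM in knockdown and 19.5, 21.5 and 20.4 CPM in control libraries, again without overlap. It rose 1.39-fold (log2 fold change 0.48, SE 0.088, edgeR adjusted p = 0.00869 with the block and 0.108 without it), and among members its call alone held in all 7 fits tried with the block. Gemin4, which binds Gemin3 in that complex, was at 28.1 ± 2.20 against 30.7 ± 2.19 CPM and did not pass.

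Helicases of ribosome assembly in the nucleolus leaned upward as a group. Among 16 tested, 4 rose, 0 fell and 12 did not pass, against 10.5% of all tested genes called higher. The group's median log2 fold change was 0.18, against -0.0090 over all tested genes, and it lay between 0.16 and 0.28 under every setting tried. The count was less steady, with 9 called higher with total counts (21.1% of all tested genes), 1 in DESeq2 with the block (4.92%), 1 without pair 1 (3.96%) and 0 without pair 2 (2.56%). In 3 of 3 pairs 13 of the 16 were higher, where 28% of all tested genes were. The medians within pairs 1, 2 and 3 were 0.18, 0.12 and 0.24. Fibroblast marker sums overlapped between the groups but were lower in each knockdown library than in the control of its number. Their part in the upward lean was not tested.

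Ddx47, which takes part in processing of the 18S ribosomal RNA, was at 67.7, 64.7 and 65.3 CPM in knockdown and 47.3, 54.0 and 52.2 CPM in control libraries. Ddx18, a factor of the large ribosomal subunit, was at 33.2, 32.0 and 31.5 CPM against 26.9, 26 and 22.8 CPM. In both genes the knockdown values were all higher and lay closer together than the control values. Ddx47 rose 1.29-fold (log2 fold change 0.37, SE 0.071, edgeR adjusted p = 0.00974 with the block and 0.109 without it) and Ddx18 rose 1.28-fold (0.36, SE 0.078, 0.0151 and 0.131).

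Ddx55, also a factor of the large subunit, was at 23.4, 20.6 and 23.4 CPM in knockdown and 17.5, 18.5 and 17.8 CPM in control libraries, with no overlap. Ddx21, a nucleolar helicase that links RNA polymerase I transcription with ribosomal RNA processing, was at 171, 154 and 137 CPM against 134, 141 and 118 CPM. Its groups overlapped, since knockdown library 3 lay below control library 2, yet each knockdown library was above the control of its own number. Ddx55 rose 1.25-fold (log2 fold change 0.32, edgeR adjusted p = 0.0395 with the block and 0.152 without it) and Ddx21 1.17-fold (0.23, 0.0280 and 0.303).

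**Figure D3:**
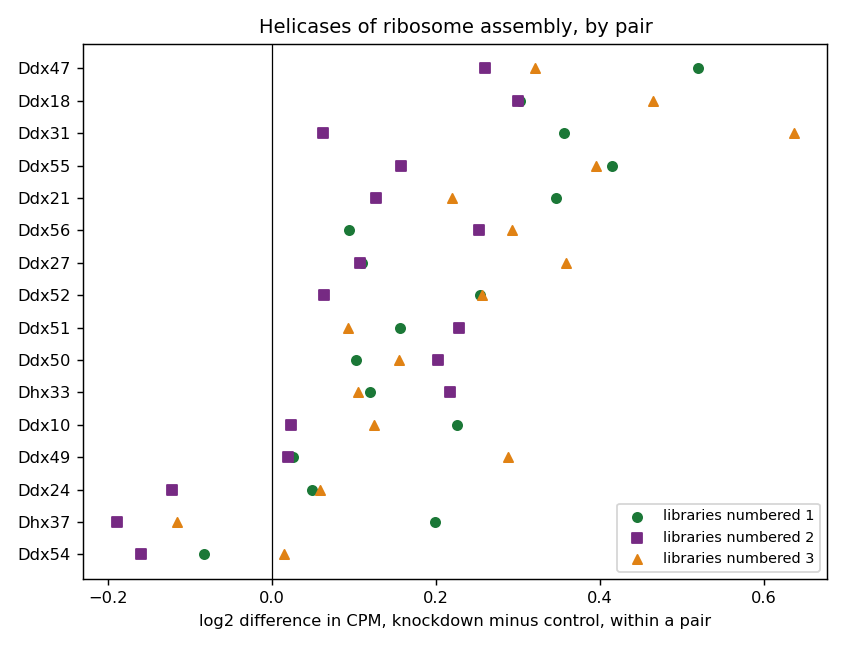
Log2 difference in CPM between the knockdown and control library of the same number for the 16 helicases of ribosome assembly, with 1 marker per pair. The markers of 13 genes lie to the right of 0 in all 3 pairs, and Ddx24, Dhx37 and Ddx54 have markers on both sides.

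The other members of the group gave values that did not pass. Ddx31 had a log2 fold change of 0.35 with differences of 0.36, 0.06 and 0.64 in pairs 1 to 3, so that its size rested on pairs 1 and 3. Ddx56, Ddx27, Ddx52, Ddx51, Ddx50, Dhx33, Ddx10 and Ddx49 had log2 fold changes of 0.21, 0.19, 0.19, 0.16, 0.15, 0.15, 0.12 and 0.11, each higher in 3 of 3 pairs. The last 3 had log2 fold changes at or below 0, Ddx24 at 87.3 ± 5.65 against 87.7 ± 6.05 CPM, Dhx37, an enzyme of the small subunit processome, at 29.7 ± 2.46 against 30.5 ± 2.95 CPM, and Ddx54 at 60.7 ± 3.66 against 64.0 ± 1.10 CPM.

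Among 9 helicases of the spliceosome 1 rose, 0 fell and 8 did not pass. The share called higher, 11.1%, was near the 10.5% of all tested genes, of which a further 11.1% were called lower. The median log2 fold change was 0.0026. Dhx16, which drives the remodelling that activates the spliceosome, was at 37.7, 34.1 and 37.5 CPM in knockdown and 30.4, 29.2 and 30.4 CPM in control libraries, without overlap. It rose 1.21-fold (log2 fold change 0.28, SE 0.071, edgeR adjusted p = 0.0260 with the block and 0.143 without it). Dhx15 was at 195, 183 and 175 CPM against 169, 168 and 159 CPM, and Dhx8, which releases the spliced mRNA, at 45.1, 46.6 and 49.0 CPM against 42.4, 42.4 and 39.0 CPM. The groups did not overlap in either gene, but the adjusted p was 0.0702 for Dhx15 and 0.105 for Dhx8 in the edgeR block fit. Dhx38 was at 62.8, 54.8 and 55.3 CPM in knockdown and 65.4, 64.3 and 56.6 CPM in control libraries, which overlap. Ddx23, Ddx42, Ddx46 and Ddx41 had log2 fold changes of 0.0026, -0.03, -0.11 and -0.08, and Dhx35 was at 8.68 ± 1.17 against 7.80 ± 0.503 CPM.

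Each member was placed under at most 1 role, so a role group need not hold every gene with that role. Of the 3 members placed under antiviral sensing 1 fell, 1 did not pass and 1, Ddx60, was too low to test. Of all tested genes 11.1% fell. Ddx58 is the table's symbol for the gene of RIG-I, a cytoplasmic sensor of viral RNA that RefSeq lists as Rig1. It was at 15.2, 16.3 and 13.9 CPM in knockdown and 19.7, 22.1 and 22.7 CPM in control libraries, with no overlap. It fell by a log2 fold change of 0.51 (SE 0.10, edgeR adjusted p = 0.0108 with the block and 0.110 without it). Dhx58, which encodes LGP2, a relative of RIG-I that lacks the signalling domains, was at 3.33, 2.90 and 3.16 CPM against 4.14, 4.21 and 4.12 CPM. Its knockdown values were all lower, but with counts of 54 to 77 per library it did not pass (log2 fold change -0.41, edgeR adjusted p = 0.173 with the block). Both genes were lower in 3 of 3 pairs.

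Dhx57, a DEAH-box gene whose function is less defined, was at 39.5, 32.3 and 37.0 CPM in knockdown and 43.3, 39.1 and 50.0 CPM in control libraries. The ranges overlapped because knockdown library 1 lay above control library 2. It fell by a log2 fold change of 0.28 (SE 0.078, edgeR adjusted p = 0.0342 with the block and 0.258 without it). Of the other members with less defined roles, Dhx32 was at 23.9 ± 2.86 against 21.0 ± 0.517 CPM and Ddx59 at 11.9 ± 1.26 against 10.2 ± 0.686 CPM. Dhx40 was at 36.6, 41.1 and 37.8 CPM against 36.1, 39.1 and 51.6 CPM, and control library 3 alone stood apart.

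**Figure D4:**
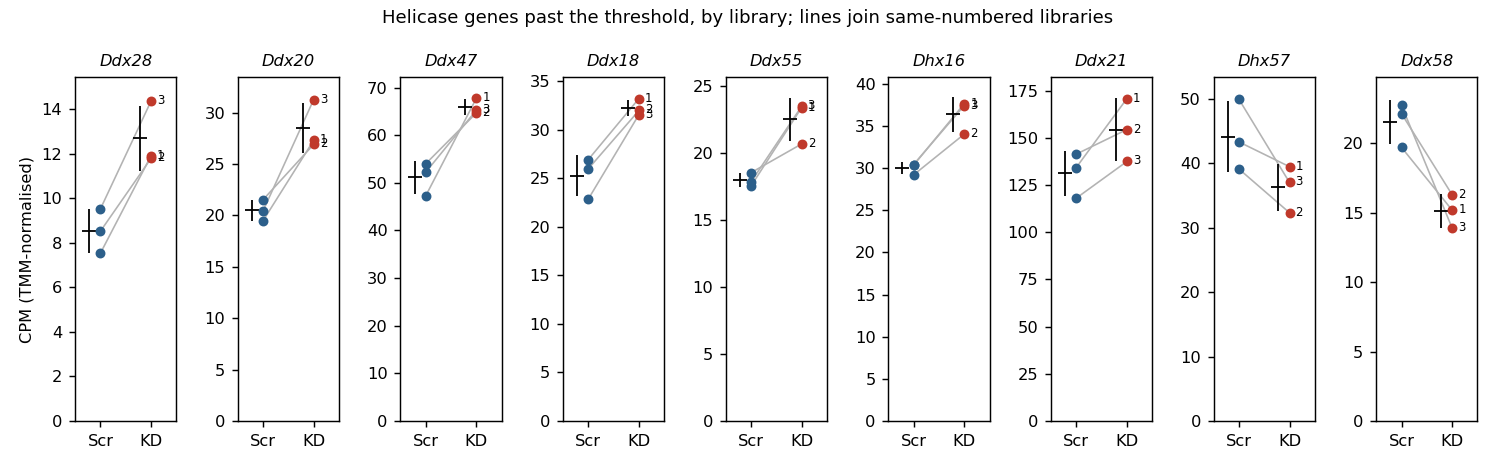
CPM in each library for the 9 helicase genes past the threshold (blue, Scr control; red, MIAT knockdown; axes start at 0). Grey lines join libraries of the same number, which stands beside the knockdown point, and the black bar gives the mean and SD of 3 libraries. All lines rise in the 7 genes from Ddx28 to Ddx21 and fall in Dhx57 and Ddx58.

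These calls rested on few libraries. Without the number 2 libraries only the call of Ddx20 held (log2 fold change 0.55), and without the number 1 libraries those of Ddx18 (0.39), Ddx20 (0.47), Ddx58 (-0.57) and Dhx57 (-0.35). Where calls ended without pair 2 the log2 fold changes were 0.38 for Ddx18, 0.28 for Ddx21, 0.63 for Ddx28, 0.42 for Ddx47, 0.41 for Ddx55, 0.31 for Dhx16, -0.54 for Ddx58 and -0.28 for Dhx57, and without pair 1 they were 0.18 for Ddx21, 0.54 for Ddx28, 0.29 for Ddx47, 0.28 for Ddx55 and 0.26 for Dhx16. Leaving out pair 3, which holds the control library that stands apart, ended the call of Dhx57 alone (-0.21). Dhx57 also ended with total counts (-0.17) and with a correction for gene length (-0.22), as did Ddx55 with the latter (0.30).

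The 3 most abundant genes with a Ddx symbol did not pass, and their groups overlapped. Ddx5 was at 667, 638 and 627 CPM in knockdown and 638, 641 and 628 CPM in control libraries (log2 fold change 0.02, SE 0.054). Ddx3x was at 465, 477 and 440 CPM against 435, 474 and 482 CPM (log2 fold change -0.0068, SE 0.061), and the sign turned with total counts (0.10). Ddx1 was at 252, 275 and 255 CPM against 236, 271 and 234 CPM (log2 fold change 0.08, SE 0.054). Its log2 differences in pairs 1 to 3 were 0.096, 0.019 and 0.12, so it was higher in 3 of 3. Ddx1 passed in the edgeR block fit with total counts (0.19, adjusted p = 0.0438), where 21.1% of all tested genes were called higher. In Ddx5 and Ddx3x the sign differed between pairs. None of the 5 members of mRNA export passed, with Ddx39b, Ddx39a, Ddx19b and Ddx19a at log2 fold changes of 0.04, 0.0035, 0.06 and -0.01. The fifth, Ddx25, a testis helicase, was at 2.40 ± 0.485 against 3.04 ± 0.0524 CPM. In translation and mRNA turnover none of 5 tested members passed either. Ddx6, a helicase of mRNA storage and decay bodies, had a log2 fold change of 0.08, Dhx36, which unwinds G-quadruplexes, was at 54.3 ± 5.73 against 49.9 ± 1.64 CPM, Dhx29, a factor of scanning ribosomes, at 43.6 ± 1.66 against 43.8 ± 2.45 CPM, and Dhx34, a factor of nonsense-mediated decay, at 9.60 ± 0.809 against 10.6 ± 0.950 CPM. Ddx11, a DNA helicase of sister chromatid cohesion, was at 11.8, 9.49 and 8.82 CPM against 8.61, 7.91 and 7.97 CPM without overlap, and its adjusted p was 0.138 in the edgeR block fit.

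Ratios were taken for 6 pairs of related helicases, paired from general knowledge. The ratio of Ddx5 to its close relative Ddx17 was 3.55 ± 0.145 in knockdown and 3.37 ± 0.286 in control libraries per length, and that of Ddx21 to Ddx50 was 1.83 ± 0.167 against 1.74 ± 0.255. The ratio of Ddx39a to Ddx39b was 0.513 ± 0.0230 against 0.526 ± 0.0370 and that of Ddx19a to Ddx19b 3.02 ± 0.0990 against 3.22 ± 0.517. Ddx3x stood at 4.05 ± 0.187 and 3.91 ± 0.214 times Ddx3, a separate gene that RefSeq lists with the synonym Ddx3yl. The groups overlapped in these 5 ratios. The sixth, of Dhx36 to Dhx57, was 1.37, 1.48 and 1.18 in knockdown and 1.06, 1.15 and 0.861 in control libraries (1.34 ± 0.150 against 1.02 ± 0.146). Its groups did not overlap, and Dhx57 fell while Dhx36 did not pass. How reads that match more than 1 gene were counted is not known, so the values of close relatives such as Ddx3x and Ddx3 are uncertain.

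Dhx9, left out by the rule, stood at 177 ± 17.7 against 206 ± 11.8 CPM. With the block its log2 fold change was -0.22 (edgeR adjusted p = 0.0250 with the block and 0.284 without it). Of 19 tested RNA helicases with other names 3 rose and 7 fell, against 10.5% and 11.1% of all tested genes, and the median log2 fold change was -0.18. The 3 genes with the largest falls were Ifih1, the RNA sensor MDA5, with knockdown libraries at 6.95 ± 1.08 CPM and a log2 fold change of -0.80, Znfx1, from 28.9 ± 2.07 to 16.9 ± 2.30 CPM, and Helz2, from 17.3 ± 2.60 to 12.1 ± 2.31 CPM. Eif4a2, a DEAD-box translation factor, rose from 242 ± 18.6 to 317 ± 47.5 CPM. With the length correction 1 of the 19 was called higher and 2 lower (9.41% and 7.69% of all tested genes), with total counts 4 and 4 (21.1% and 6.1%), and without pair 2 the count was 1 and 2 (2.56% and 2.85%).

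Of 23 G-patch proteins, partners that activate DEAH-box enzymes, 4 rose, 2 fell and 17 did not pass. The 26.1% called were near the 21.6% of all tested genes, and DESeq2 with the block called 0 of them (4.92% and 6.92% of all tested genes). Gpatch3, Gpatch4 and Gpank1 rose by log2 fold changes of 0.56, 0.48 and 0.42, and Rbm17, a splicing factor, by 0.28. Of 22 cofactors of DEAD-box enzymes, 7 rose, 3 fell and 12 did not pass, against 10.5% and 11.1% of all tested genes, while DESeq2 with the block called 2 higher and 3 lower. The block fit with length correction called 4 cofactors higher and 1 lower (9.41% and 7.69% of all tested genes). The counts were 12 and 2 with total counts (21.1% and 6.1%), and 2 and 0 without pair 1 (3.96% and 4.97%). Magohb, a subunit of the exon junction complex, rose from 5.84 ± 1.03 to 9.19 ± 1.77 CPM, and Edc3, which binds Ddx6, from 31.5 ± 3.20 to 43.4 ± 5.81 CPM. Nup214, the nuclear pore protein that binds Ddx19 helicases, fell from 46.3 ± 2.45 to 36.5 ± 2.04 CPM, and Cwc22, a splicing factor that holds Eif4a3, rose by a log2 fold change of 0.32. The medians were 0.02 for the G-patch proteins and 0.10 for the cofactors, against -0.0090 over all tested genes. Without pair 2 (2.56% and 2.85% of all tested genes) the calls were 0 for the G-patch proteins and 1 higher and 1 lower for the cofactors, and the sign of the G-patch median turned without pair 1 (-0.02).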

How the data were processed

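The deposited files hold whole-number counts per gene symbol and, for the same 6 libraries, FPKM. Gene length was not given and was derived from the deposited counts, FPKM and library totals. The length correction used this derived length. Putting it back reproduced 100% of FPKM values above 0 (relative tolerance 1e-06). Since the length came from the same values, this shows only that a gene's implied length did not differ between libraries. Sources used here give no aligner, counter, strand setting or genome build. Counts were scaled with TMM, filtered with filterByExpr and tested with edgeR 4.0.16 (quasi-likelihood, R 4.3.3), with limma 3.58.1 and DESeq2 1.42.0 as alternatives. The scripts were tested on simulated data. The filter left 13423 of 18631 genes. Standard errors are the log2 fold change divided by the square root of F.

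The members and lists were chosen with earlier results of these data known. Values are given in full for members past the threshold in either fit and for the 3 most abundant of each family, and other genes by count with up to 4 names a list. Same-numbered libraries had correlations of their deviations from the group means of 0.67, 0.49 and 0.56, against -0.55 to -0.045 for others, and part of that contrast is built in. The pairing comes from these values and the numbers in the titles, not from a statement in the labels. The test without the block was the primary design and the block a secondary one, and all rises and falls in the text come from the latter. edgeR's biological coefficient of variation fell from 19.7% (4 residual degrees of freedom) to 8.09% (2) on adding the block. RefSeq (GRCr8) gave promoters, protein identity was not computed, and all 53 members matched it by symbol (52) or synonym.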

Additional observations from a re-analysis of the deposited data

How the results depend on the processing

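Without the block, other scalings, filters, limma and leaving out any library gave 0 calls among members, as over all tested genes. DESeq2 without the block gave 2 higher and 1 lower, all Ddx genes (2.73% and 2.47% of all tested genes). Leaving out 1 library moved the Ddx median between 0.06 and 0.09 and the Dhx median between -0.0092 and 0.03. With the replicate block 6 Ddx genes were higher and 1 lower, and 1 Dhx gene was higher and 1 lower (10.5% and 11.1% of all tested genes). DESeq2 with the replicate block gave 3 Ddx genes higher and 1 lower and no Dhx call (4.92% and 6.92%). Total counts with the block gave 13 Ddx genes higher, 1 lower and 5 Dhx genes higher (21.1% and 6.1%). The length correction with the block gave 5 Ddx genes higher, 1 lower and 1 Dhx gene higher (9.41% and 7.69%). With the block and a pair left out, 1 to 7 Ddx genes were higher and 0 to 2 lower, and 0 to 2 Dhx genes were higher and 0 to 1 lower. In these fits 2.56% to 14.1% of all tested genes were called higher and 2.85% to 16.2% lower. The Ddx median of 0.08 became 0.19 with total counts, without or with the block, and 0.18 and 0.19 in limma on log2(FPKM + 1) and log2(FPKM + 0.1), which share that scaling. The Dhx median changed sign between settings, so no direction is given for it. Among 300 values of named members under the alternatives, 236 kept direction and side of the threshold, 47 passed it where the fit without the block did not, and 17 changed sign, all in genes that did not pass. Ddx5 became -7.0e-04 without pair 1 in the block fit, and ran from -0.0043 to 0.039 with 1 library left out. Ddx3x became 0.10 with total counts (without and with the block) and in limma with either pseudocount, 0.0019 without the low-count filter, 0.048 with the length correction and 0.051 without pair 3 in the block fit, and ran from -0.055 to 0.026 with 1 library left out. Dhx40 became 0.043 without pair 3 in the block fit and ran from -0.24 to 0.032 with 1 library left out. Dhx38 became 5.2e-04 and 6.8e-04 in limma with pseudocounts 1 and 0.1 and 7.5e-04 with total counts and the block. The cause of these changes was not tested. Few libraries and 2 residual degrees of freedom limit the precision, most of all for genes under 5 CPM such as Dhx58 and Ddx25.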
